A study of Mus musculus with 2 samples.

Results

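Immune cells of the newborn mouse ovary were examined in 2 single-cell RNA-seq libraries of whole ovaries of CD1 females at postnatal day 2. Each library was made from 6 ovaries of 3 pups of a single mother, so the animals were pooled within a library, and there was no treatment, genotype or second age. A cell counted as immune when it held at least 500 genes, at most 10% mitochondrial UMIs (unique molecular identifiers, 1 per captured transcript), at least 3 of 9 leukocyte genes (Ptprc, Cd52, Tyrobp, Fcer1g, Laptm5, C1qa, C1qb, Csf1r and Lyz2) whose sum reached 0.1% of its UMIs, and less than 0.05% of UMIs from the oocyte genes Ddx4, Dazl and Ooep. This rule took 101 of 8202 cells, 38 of 3738 in replicate 1 and 63 of 4464 in replicate 2. The share was 1.02% (95% Clopper-Pearson interval 0.720 to 1.39%) in replicate 1 and 1.41% (1.09 to 1.80%) in replicate 2, and these intervals cover counting error only. A C1qa or Csf1r UMI marked 83 of the 101 as macrophages, 28 and 55 in the libraries, and the other 18, 10 and 8, were taken as other leukocytes. Of the cell barcodes, 21 occurred in both libraries, and 1 immune barcode of either library was found in the other.

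Macrophages are the resident phagocytes of most organs. They depend on the receptor CSF1R and its ligands CSF1 and IL34, secrete the complement protein C1q, and take up dying cells and degrade them in lysosomes. In the mouse ovary many oocytes are lost around birth, and macrophages are known as cells that clear such remnants. Other leukocytes of young tissues include neutrophils, which carry the granule proteins S100A8 and S100A9, dendritic cells, which present antigen on MHC class II, and T cells and innate lymphoid cells, which have little of the myeloid machinery.

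The median immune cell had 8517 and 6541 UMIs in the respective libraries, and the median of all other cells was 8778 and 6234. The deepest immune cell had 20530 and 21774 UMIs and the deepest other cell 126837 and 115634, so only the medians were close. In all they gave 318523 and 408610 UMIs, 0.595% and 0.702% of the UMIs of the kept cells. Macrophages were deeper than other leukocytes, with medians of 9170.5 and 6728 UMIs against 4385 and 4644. The 9 leukocyte genes made up a median of 1.66% and 1.76% of the UMIs of an immune cell.

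**Figure D1:**
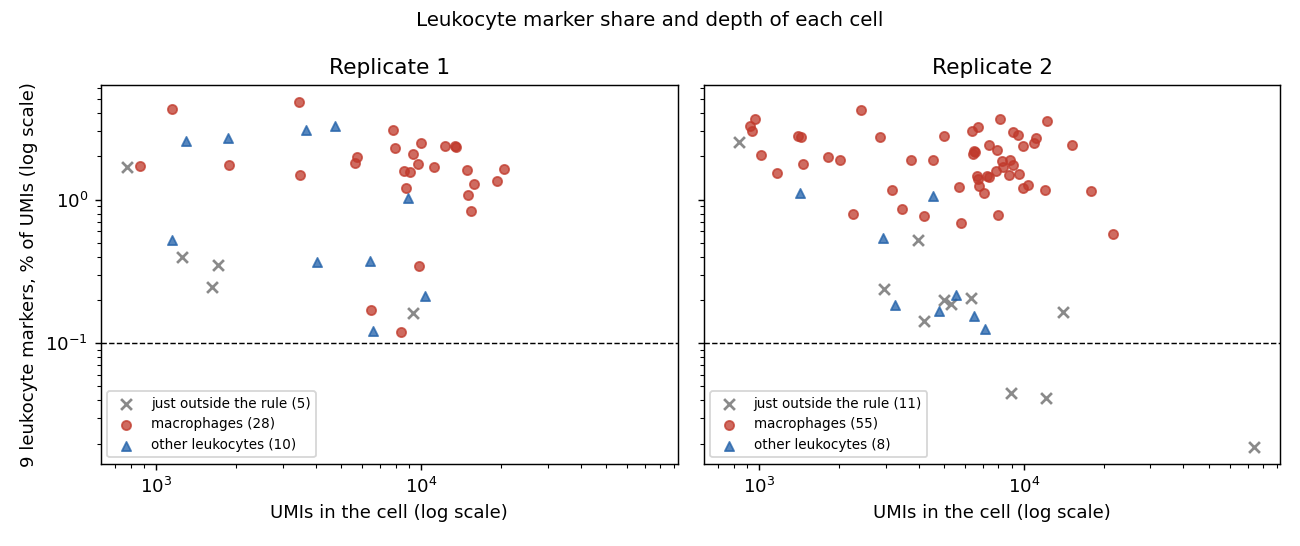
Share of UMIs from the 9 leukocyte genes (vertical axis, percent, log scale) against the UMIs of the cell (horizontal axis, log scale) in each library. Each symbol is a cell and the dashed line is the minimum of 0.1%; macrophages lie mostly above 0.5%, whereas many other leukocytes lie near the line, beside the 5 and 11 cells that missed the rule by a single criterion.

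The genes that chose the cells are given as a description, without a test. C1qa was found in 26 of 28 and 51 of 55 macrophages, with a median of 26.5 and 22 UMIs per cell and a maximum of 95 and 66. Among all other cells 0.378% and 0.364% held a C1qa UMI, the background against which the shares are read. Tyrobp, the adaptor of activating myeloid receptors, was found in 27 of 28 and 54 of 55 macrophages. Ptprc, which encodes the pan-leukocyte phosphatase CD45, was sparse, with 29 and 46 UMIs in all immune cells, and 47.4% and 52.4% of them held it, whereas 0% and 0.0454% of other cells did. Lyz2, lysozyme, had the highest level of the 9 at 4201 and 5309 CPM (UMI counts scaled to a common total and by the trimmed mean of M-values), against 0.712 and 1.16 CPM in other cells.

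Both C1qa and Csf1r were present in 70 of the 83 macrophages, C1qa alone in 7 and Csf1r alone in 6. At least 3 of 11 macrophage genes (the C1q genes, Csf1r, Adgre1, Fcgr1, Mertk, Mrc1, Cx3cr1, Cd68 and Aif1) were found in 78 of them, 26 and 52. This list shares C1qa, C1qb and Csf1r with the rule, so the count is a description. C1qc and Pf4, which the rule did not use, were found in 25 of 28 and 51 of 55 macrophages and in 25 and 50. Of the 5 macrophages with fewer, 1 in replicate 1 held at least 3 of 6 monocyte genes and the other 4 reached 3 genes of no immune lineage, among them a cell of replicate 1 with all 5 of a list of interstitial genes.

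The C1q chains are encoded side by side. C1qb (chr4:136880129-136886187), C1qc (chr4:136889804-136893065) and C1qa (chr4:136895917-136898803) lie on the minus strand of chromosome 4 in the GRCm38 annotation. C1qc was not used to choose cells, and it is the remaining chain of the same complex. Spi1, which encodes the myeloid transcription factor PU.1, was among the factors present in these cells, and PU.1 is known to bind purine-rich sites with a GGAA core. The windows of 250 bases before the RefSeq start (GRCm38.p6) are shown for C1qb, C1qc and the platelet factor gene Pf4, an abundant gene of these cells outside the rule, to place such letters; capitals mark AGGAAGT or, on the other strand, ACTTCCT.

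C1qb, chr4:136886201-136886450, minus strand: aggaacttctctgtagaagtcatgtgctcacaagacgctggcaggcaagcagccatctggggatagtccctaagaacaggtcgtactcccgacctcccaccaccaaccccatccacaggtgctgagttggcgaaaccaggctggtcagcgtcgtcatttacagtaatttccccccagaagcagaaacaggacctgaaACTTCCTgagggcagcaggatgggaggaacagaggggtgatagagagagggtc
C1qc, chr4:136892915-136893164, minus strand: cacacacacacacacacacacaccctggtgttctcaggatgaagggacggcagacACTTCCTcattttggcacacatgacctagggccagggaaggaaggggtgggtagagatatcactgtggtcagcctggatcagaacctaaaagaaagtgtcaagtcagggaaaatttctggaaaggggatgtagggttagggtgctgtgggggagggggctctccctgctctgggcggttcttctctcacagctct
Pf4, chr5:90772185-90772434, plus strand: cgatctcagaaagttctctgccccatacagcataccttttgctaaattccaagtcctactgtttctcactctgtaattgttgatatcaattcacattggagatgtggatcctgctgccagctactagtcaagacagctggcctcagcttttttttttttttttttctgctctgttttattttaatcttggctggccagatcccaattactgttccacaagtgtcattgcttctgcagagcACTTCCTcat

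The match began 53 bases before the start in C1qb, 195 bases in C1qc and 10 bases in Pf4. The longer string GAGGAAGT, which contains AGGAAGT, was present in C1qc and Pf4 and not in C1qb. On either strand AGGAAGT occurred in 7.69% and GAGGAAGT in 2.44% of the same windows of all 32851 RefSeq promoters. AGGAAGT was also found before Lyz2 and before both listed starts of Ptprc, and it was not found in the windows of Fcer1g, Laptm5, Gata3 and Cd3g. C1qa, Tyrobp and Cd52 had no entry. Such a match is a description of the letters and not a binding site.

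To see which kinds of leukocyte the 18 other cells were, each was read against marker lists of 7 immune lineages, and a lineage was noted where at least 3 of its genes had a UMI. Of these cells, 11 (4 and 7) held T cell or innate lymphoid genes, 4 held neutrophil genes, all in replicate 1, and 3 reached no list. Of the neutrophil cells, 1 also held 3 of 6 monocyte genes. None of the 18 reached 3 of 7 mast cell genes, 3 of 6 B cell genes, 3 of 6 NK genes or 3 of 6 dendritic cell genes.

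Of the 11 T or innate lymphoid cells, 10 passed the rule with exactly 3 leukocyte genes, which were Ptprc, Cd52 and Laptm5 in most of them, and 3 of the 11 held Tyrobp or Fcer1g. Gata3, a transcription factor of type 2 lymphocytes, and Il1rl1, the receptor for IL-33, were found together in 2 cells of replicate 1 and 5 of replicate 2. Messenger RNA of the T cell receptor loci was also present, as Trbc2 and Tcrg-C1, and so was that of the CD3 chain gene Cd3g. Cd3e, another CD3 chain gene, was found in 2 cells of each library. A cell of replicate 1 held Trdc (7 UMIs), Cd3g (16), Nkg7 (9) and the chemokine gene Xcl1 (39), the largest value of each of these genes in an immune cell. Ncr1, a receptor of NK cells and some innate lymphoid cells, was found in 2 cells of replicate 2 with 9 and 4 UMIs.

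The neutrophil cells were few and uneven. In 2 cells of replicate 1 with 4722 and 3678 UMIs, the 7 neutrophil genes made up 35.7% and 43.6% of all UMIs, S100a8 gave 690 and 689 UMIs, and the secondary granule genes Ngp and Camp gave at least 199. Another cell with 1290 UMIs held S100a8 (31) and S100a9 (21) and no Ngp or Camp, and the fourth, with 1142 UMIs, was placed by S100a8 and S100a9 with 1 UMI each and 1 UMI of a further gene. S100a8 was also found in 1 macrophage of replicate 1 (88 UMIs) and 2 of replicate 2 (108 and 12), which gave all of its UMIs in the immune cells of that library.

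A cell of replicate 1 stood out by MHC class II. It held 209 UMIs of Cd74, the invariant chain, 131 of H2-Aa and 67 of H2-Ab1, with Clec9a (3) and Flt3 (2), which are dendritic cell genes, and it was marked as a likely doublet. In the 83 macrophages H2-Aa was found in 1 cell of each library with 1 UMI, and H2-Ab1 in none. Cd74 was found in 8 of 28 and 30 of 55 macrophages with at most 7 UMIs, against 3.16% and 4.18% of other cells.

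**Figure D2:**
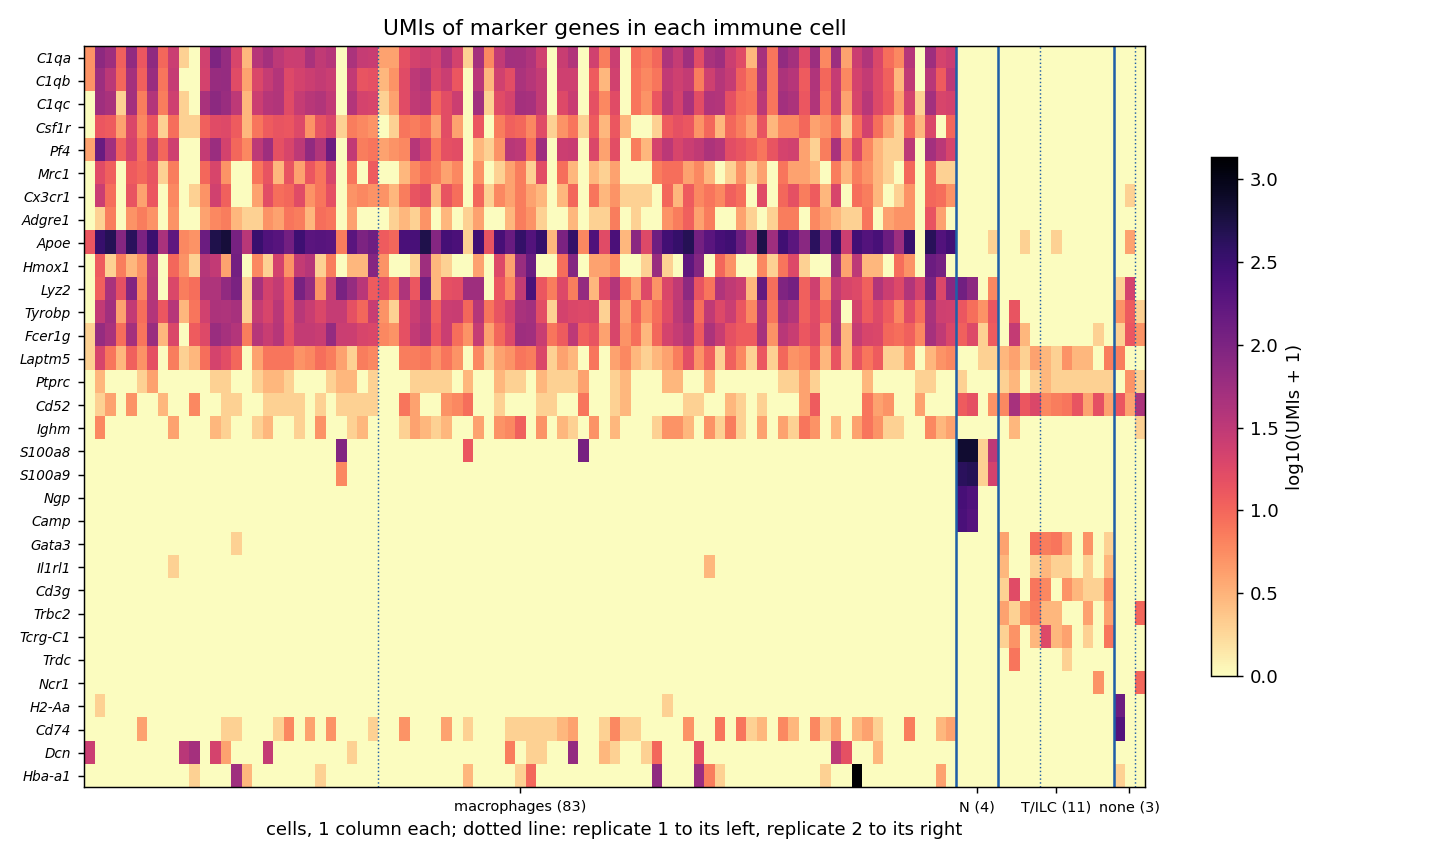
UMIs of marker genes (rows) in each of the 101 immune cells (columns), as log10(UMIs + 1), ordered into 83 macrophages, 4 cells with at least 3 neutrophil genes (N), 11 with at least 3 T or innate lymphoid genes (T/ILC) and 3 with no lineage. Solid lines part the groups and dotted lines part replicate 1 from replicate 2. The C1q genes and Pf4 fill most macrophages and are empty in every other leukocyte. For C1qa the emptiness is set by the split itself, which used C1qa or Csf1r.

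RNA of other ovarian cells was also present in some cells named macrophages. At least 3 of 5 interstitial genes (Col1a1, Col1a2, Col3a1, Dcn and Pdgfra) were found in 6 and 8 macrophages, at up to 1.29% and 1.03% of their UMIs. In replicate 1 the 3 cells with the highest interstitial share held 2, 9 and 3 UMIs of the 11 macrophage genes, so few macrophage transcripts stood behind the name there. At least 3 of 5 erythroid genes were found in 1 and 4 macrophages, and a macrophage of replicate 2 held 1354 UMIs of the alpha globin gene Hba-a1 and 22.9% erythroid UMIs. In all immune cells the granulosa list held 16 and 22 UMIs over 8 genes, of which Amh and Fst were at 0, and the mesothelial list 1 and 11 UMIs over 8 genes, of which Krt7, Lrrn4, Msln and Muc16 were at 0 in each library. The 8 germ cell genes held 30 and 39 UMIs, of which the maternal-effect gene Dppa3 gave 17 and 16. The 8 endothelial genes held 28 and 34 UMIs, of which the secreted factor gene Egfl7 gave 22 and 31, and Cdh5 and Flt1 were at 0 in each library.

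To learn which genes set immune cells apart from the rest of the ovary, UMIs were summed per library in immune cells and in all other cells and compared with edgeR's quasi-likelihood test. Of 15461 genes tested outside the rule, 1529 (9.89%) were called higher in immune cells and 1581 (10.2%) lower, at a log2 fold change beyond 1 and a Benjamini-Hochberg adjusted p under 0.05. The cells were chosen by 9 of their genes, so genes that vary with those are not independent of the choice, and the test speaks of the agreement between 2 libraries. The median log2 fold change of all tested genes was -0.52, and -0.85 under scaling by library size, where 31.8% of calls were higher in immune cells in place of 49.2%. Cells with 0.05% or more of the oocyte genes were 6.70% and 18.4% of the other cells but gave 32.7% and 49.2% of their UMIs. With those cells left out, 1254 genes were called higher and 1005 lower, of which 1100 and 645 were shared with the full comparison.

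The 12 genes with the largest positive differences were at or near 0 in other cells. Wfdc17, a secreted protease inhibitor gene of activated macrophages, had 63 and 52 UMIs (216 and 148 CPM) in immune cells and 0 in 8101 other cells, an at least 7402-fold higher level against a floor of 3 counts. Genes at 0 in other cells passed the filter on low counts through the immune sums alone, so their direction was fixed and no p is given for them. C1qc had 2576 and 3073 CPM against 0.182 and 0.235 (13598-fold, counting interval 9250 to 20873). Other cells held 11 and 15 C1qc UMIs, so it too passed the filter through the immune sums and no p is given. All 12 genes were chosen as over 2-fold higher in each library, so immune values above those of other cells follow from the choice. Clec4a3, Ptafr (the receptor for platelet-activating factor) and Itgam (the integrin chain CD11b) were at 0 in other cells and were at least 3218-fold, 3089-fold and 1738-fold higher. Bcl2a1b, the chemokine genes Ccl3 and Ccl4, and the receptor genes Clec4a2, Ms4a7 and Cd33 were 11034-fold to 18151-fold higher, with 1 to 10 UMIs in all other cells. With so few UMIs the counting intervals are wide, from 6148 to 88541 for Bcl2a1b, 4540 to 65757 for Clec4a2 and 2590 to 594786 for Cd33. Bcl2a1b belongs to a family of near-identical copies among which reads may be split. S100a8 had 5141 CPM in replicate 1 and 341 in replicate 2 against 0.0994 and 0.0313, so the libraries differed more for it than for the other 11 genes. Without the 4 neutrophil cells its log2 fold change went from 15.28 to 12.23. Other cells nearly lack S100a8, so it passed the filter through the immune sums and this value is a description.

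**Figure D3:**
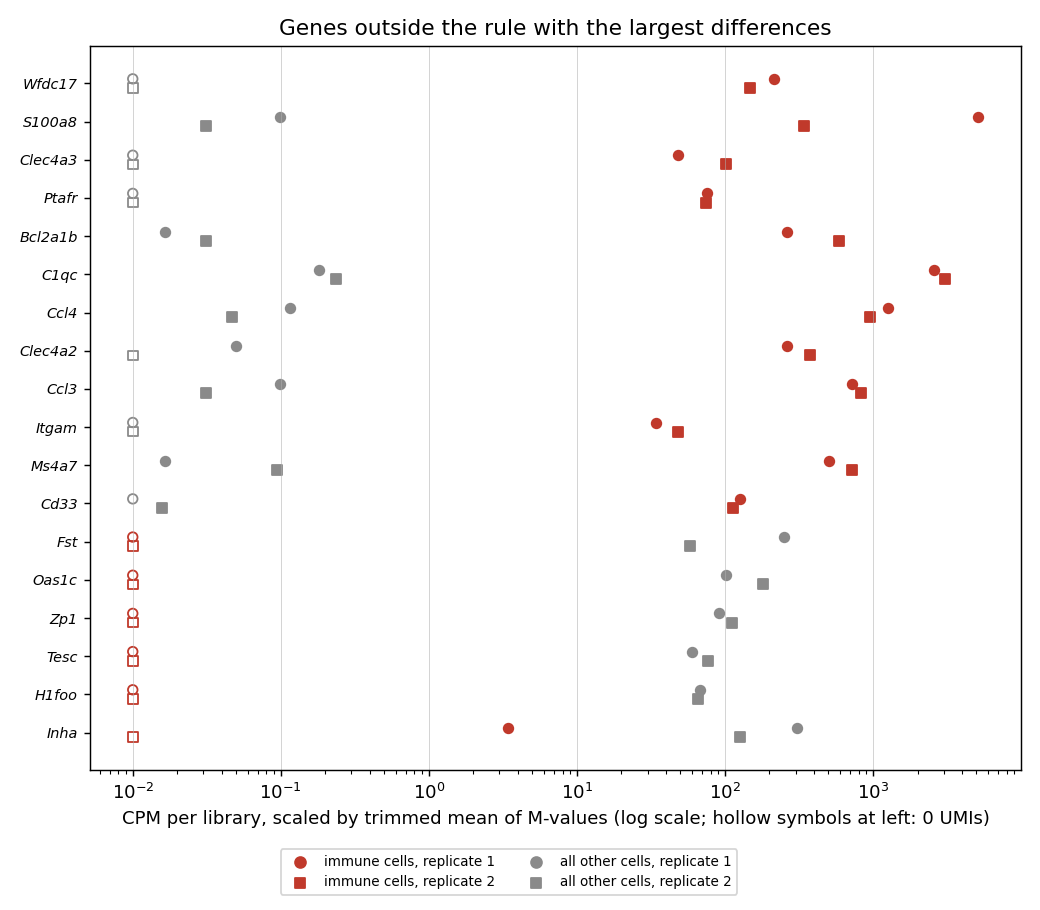
CPM in each library (log scale, scaled by the trimmed mean of M-values) of the 12 genes with the largest positive and the 6 with the most negative difference between immune cells (red) and all other cells (grey). Circles are replicate 1 and squares replicate 2, and hollow symbols at the left edge stand for 0 UMIs. The 18 genes were chosen as over 2-fold apart in each library, so the gap between immune and other values follows from the choice.

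The genes with the most negative differences belonged to oocytes and granulosa cells. Fst, the activin-binding protein follistatin, had 0 UMIs in immune cells and 252 and 58.4 CPM in other cells, an at least 32.7-fold lower level. Oas1c, the zona pellucida gene Zp1, Tesc and the oocyte linker histone gene H1foo were likewise at 0, at least 30.4-fold, 21.8-fold, 14.7-fold and 14.2-fold lower. Inha, the inhibin alpha chain, had 1 and 0 UMIs against 307 and 125 CPM (ratio 0.00727, counting interval 0.000184 to 0.0405). With the oocyte-rich cells left out of the reference, Oas1c, Zp1, Tesc and H1foo were no longer called (adjusted p = 0.262 to 0.404, edgeR), at fitted log2 fold changes of -7.43 to -8.31 that depend on the prior count since immune cells were at 0. The 8 listed germ cell genes, all called lower in the full comparison, gave 0 calls.

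Genes that other cells nearly lack passed the filter on low counts through the immune sums, where they are high, so the counts of such lists are a description. Over all tested genes 9.89% were higher and 10.2% lower, and the list counts from here on stand beside these shares. Of 26 macrophage genes outside the rule, 25 were tested and all 25 were higher in immune cells, with a median log2 fold change of 10.58 beside -0.52 for all tested genes. Apoe, the lipid carrier apolipoprotein E, was the most abundant of them at 18932 and 30533 CPM against 85.4 and 129 (234-fold, counting interval 229 to 239, adjusted p = 9.51e-08, edgeR). Pf4 had 2925 and 2435 CPM against 0.911 and 0.517, and Ctss, a lysosomal protease, 1008 and 1770 CPM against 0.215 and 0.235. Of 8 genes known from microglia, the macrophages of the brain, 6 were tested, of which 4 were higher, P2ry12, Tmem119 and Gpr34 among them, and Sparc was lower (494 and 401 CPM against 1233 and 1246). P2ry12 was found in 17 of 28 and 21 of 55 macrophages, Tmem119 in 7 and 14, and the transcription factor gene Sall1 in none. These shares are given without the background of other cells. Tmem119 differed less from other cells than P2ry12, at a log2 fold change of 2.17 against 11.49.

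All 18 leukocyte-wide genes outside the rule were tested and higher, with a median log2 fold change of 7.71. Coro1a, an actin regulator of leukocytes, had 686 and 745 CPM against 0.381 and 1.5, and Rac2, a GTPase of the phagocyte oxidase and of migration, 597 and 671 CPM against 0.845 and 1.18. Ucp2, a mitochondrial carrier that many cells have, differed least of the 4 most abundant (624 and 603 CPM against 174 and 91.9).

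Among 20 leukocyte transcription factor genes, 18 were tested, 15 were higher and Tcf7 was lower. Spi1 had 278 and 430 CPM against 0.0497 and 0.110 (4480-fold, counting interval 2393 to 9466). Other cells held 3 and 7 Spi1 UMIs, so it passed the filter through the immune sums and no p is given. Maf, a factor of resident macrophages, had 439 and 361 CPM against 19.4 and 28.7. Id2 and Cebpb, which other ovarian cells also had, were 5.04-fold and 5.96-fold higher.

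Of 25 lysosome genes, 24 were tested and 22 were higher, with a median log2 fold change of 3.42. Ctsb, a cysteine protease, had 3042 and 3528 CPM against 152 and 161. Lgmn, the asparagine-specific endopeptidase legumain, had 2157 and 2546 CPM against 65.2 and 70.6, and Ctsd, an aspartic protease, 2161 and 2176 CPM against 158 and 154. Lamp1, a membrane protein of every lysosome, was 2.92-fold higher (counting interval 2.74 to 3.12). Of 20 genes for phagocytosis and the clearance of dying cells, 19 were tested, 12 were higher, and Tyro3 and Mfge8 were lower. The lower genes were near the share of 10.2% called lower over all tested genes. Stab1, a scavenger receptor that binds phosphatidylserine, had 384 and 370 CPM against 1.14 and 0.564, and Cd36 436 and 290 CPM against 9.37 and 12.1. Gas6, which bridges dying cells to MERTK and AXL, was not called (460 and 458 CPM against 340 and 303, adjusted p = 0.0815, edgeR).

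Iron, haem and lipid handling showed a similar pattern, with 17 of 19 genes tested and 16 higher (median log2 fold change 3.39). Hmox1, which breaks down haem, had 1536 and 3166 CPM against 27.5 and 20.2 (102-fold, counting interval 96.0 to 109, adjusted p = 8.17e-07, edgeR) and was found in 24 of 28 and 36 of 55 macrophages. The ferritin chains Ftl1 and Fth1, which store iron, were 11.9-fold and 9.24-fold higher, at 24337 and 27523 CPM for Ftl1. Of 11 oxidase and antimicrobial genes, 9 were tested and 8 were higher. Cybb and Cyba, the chains of the membrane-bound oxidase, had 288 and 239 CPM and 1447 and 1704 CPM against 0.182 and 0.0784 CPM and 121 and 106 CPM.

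Complement genes divided by role. Of 21 listed genes, 16 were tested, 6 were higher (C1qc, C2, the receptor genes C3ar1, C5ar1 and Itgam, and Cfp) and the inhibitor gene Cd55 was lower. C5ar1 had 422 and 381 CPM against 0.0166 and 0.157, and C3ar1 274 and 427 CPM against 0.0994 and 0.0470. Cfp, properdin, had 209 and 165 CPM against 1.16 and 1.38. The proteases C1ra and C1s1, the inhibitor gene Serping1 and C4b were not called. All 16 tested genes for Fc and inhibitory receptors were higher, and Fcgr3, a low-affinity receptor for IgG, had 556 and 973 CPM against 0.315 and 0.517. Sirpa, the receptor of the signal CD47, had 374 and 364 CPM against 7.27 and 5.69.

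Of 29 chemokine and cytokine genes, 23 were tested and 21 were higher (median log2 fold change 9.11). Cxcl2, a neutrophil attractant, was among the most abundant at 3340 and 2074 CPM against 21.7 and 5.93 (195-fold, counting interval 182 to 208, adjusted p = 9.70e-06, edgeR). Ccl12, a monocyte attractant, had 436 CPM in replicate 1 and 1161 in replicate 2 against 0.116 and 0.0940. Of 25 receptor genes, 21 were tested and 19 were higher, among them Cx3cr1, the fractalkine receptor, with 662 and 842 CPM against 0.0331 and 0.251. Genes that cells induce during dissociation stood beside these: 6 of 15 were higher (Junb, Nfkbia, Dusp1, Ier3, Atf3 and Zfp36), and Nfkbia had 2126 and 1206 CPM against 228 and 158. The call of Junb was lost under thinning and without oocyte-rich cells (adjusted p = 0.0781 and 0.0647, edgeR), where its log2 fold change was 0.65 in each case in place of 1.45. Fos was not called (1533 and 1872 CPM against 1505 and 1291, adjusted p = 0.309, edgeR). The part of dissociation in the chemokine values was not tested.

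Of the ligands of CSF1R, Il34 was lower in immune cells and Csf1 was not called. Of 10 genes for CSF1R ligands and leukocyte attractants, 4 were higher (Ccl2, Cd47, Flt3l and Tslp), and Il34 and Kitl were lower. Il34, named here after its values were seen, had 0 UMIs in immune cells of each library and was found in 12.5% and 16.0% of other cells, or 7.44% and 6.07% of those without oocyte genes. Csf1 had 4 and 0 UMIs in immune cells and was found in 4.92% and 3.89% of other cells. Ccl2, a monocyte attractant, had 480 and 413 CPM in immune cells against 6.81 and 7.08. Of 22 growth factor and matrix enzyme genes, 19 were tested, 10 were higher and Pdgfa was lower. Igf1 had 401 and 407 CPM against 64.5 and 60.5, and Tgfb1 274 and 287 CPM against 13.8 and 9.59.

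Of 23 innate sensing genes in the files, 21 were tested and 17 were higher. Cd14, the co-receptor for lipopolysaccharide, had 412 and 387 CPM against 2.77 and 1.55, and Clec4n, a receptor of the C-type lectin family, 274 and 410 CPM against 0.0166 and 0.0627. MHC class I genes followed, with 10 of 12 higher (median log2 fold change 2.59). B2m, the shared light chain, had 2984 and 5565 CPM against 559 and 356 (9.66-fold). Of 9 MHC class II genes, 8 were tested and 7 were higher, but 1 cell held 131 of the 132 H2-Aa UMIs of replicate 1 and all 67 of H2-Ab1. With likely doublets left out, which removes that cell, 4 of the 8 were higher and 1 lower. H2-Aa itself was not called (453 and 2.85 CPM against 48.7 and 49.5, adjusted p = 0.112), and with the library as a block its adjusted p was 1.01e-07 in edgeR at a log2 fold change of 1.63. It was also called higher under thinning (4.19) and without oocyte-rich cells (5.75). Of 17 interferon response genes, 14 were tested and 7 were higher. Ifitm3 had 130 and 492 CPM against 95.8 and 102, and its call was lost without the count filter, under thinning and without oocyte-rich cells (adjusted p = 0.058 to 0.29, edgeR). With oocyte-rich cells left out of the reference 1 gene of the list was called.

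**Figure D4:**
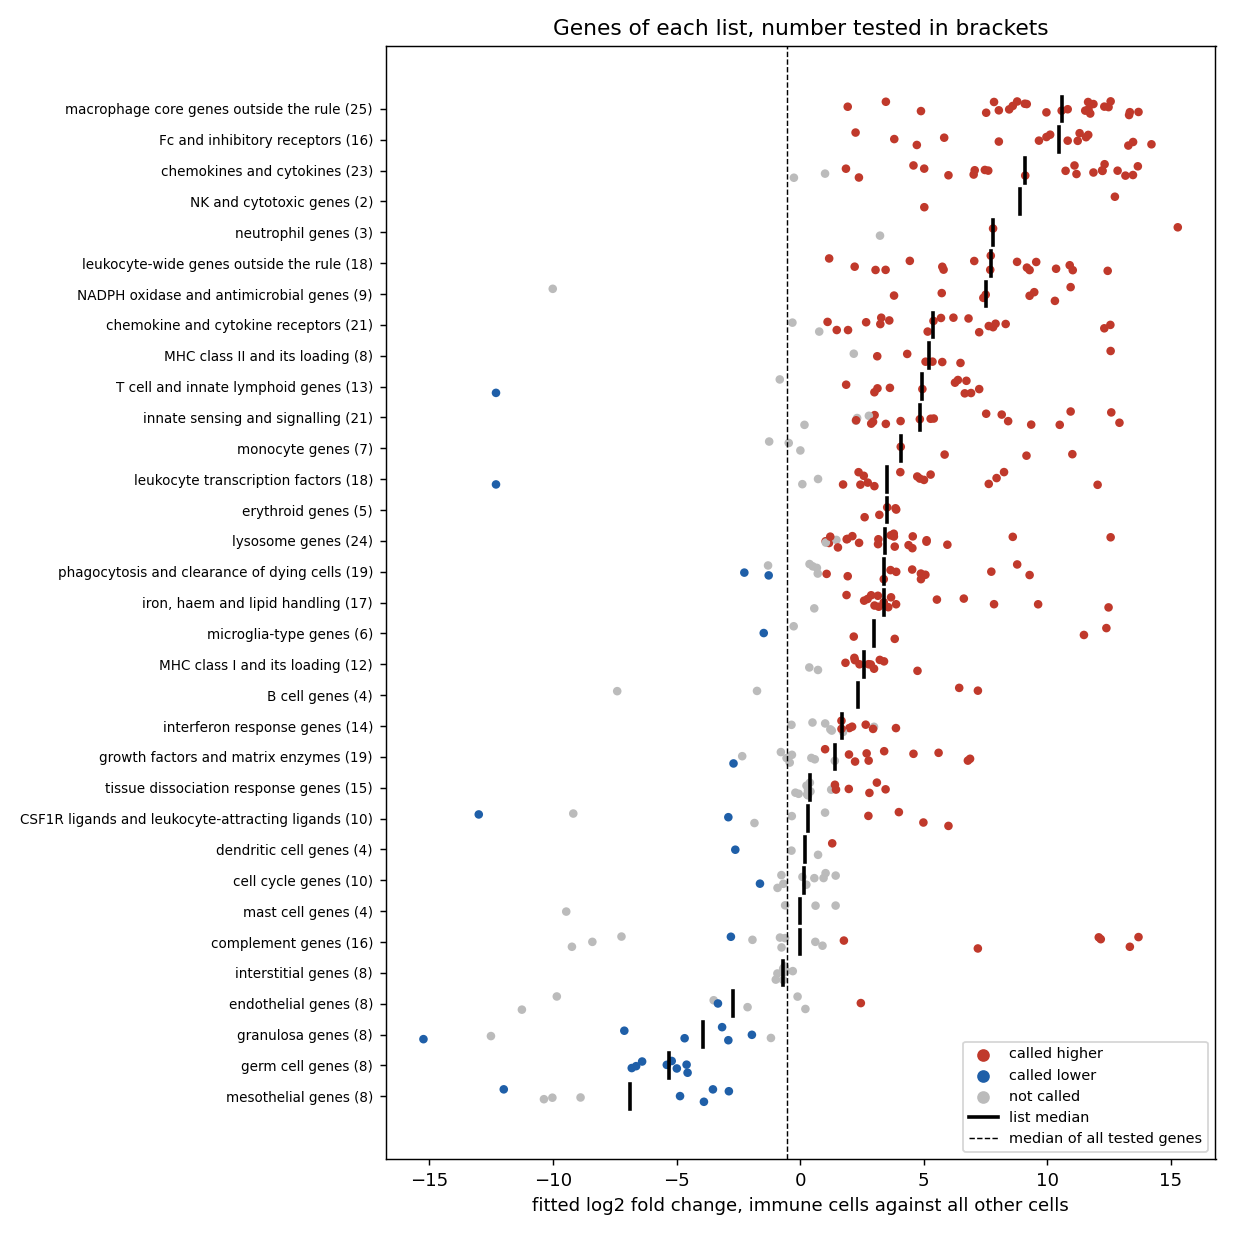
Fitted log2 fold change between immune cells and all other cells of each tested gene of 33 lists, with the number tested in brackets. Red points were called higher, blue points lower and grey points neither; thick bars are list medians and the dashed line is the median of all tested genes (-0.52). Genes with 0 UMIs in a group have fitted values that depend on the prior count.

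The lists of other blood lineages were called where few cells carried them. Of 18 T cell and innate lymphoid genes, 13 were tested, 11 were higher and Tcf7 was lower. Cd3g had 82.3 and 51.2 CPM against 0.298 and 0.784, and Gata3 41.2 and 59.7 CPM against 5.23 and 7.45, a call lost at a marker sum of at least 0.2% (log2 fold change 1.63, adjusted p = 0.0945, edgeR). When at least 4 leukocyte genes were required, which leaves out most of those cells, 9 were tested and 3 were higher. Of 12 neutrophil genes, 3 were tested and S100a8 and Csf3r were higher. S100a9, Ngp and Camp had 0 UMIs in immune cells of replicate 2 and did not pass the filter on low counts. Of 10 monocyte genes, 7 were tested and 4 were higher, led by Ms4a6c (360 and 523 CPM against 0.265 and 0.157), which macrophages also have, whereas Ccr2, the chemokine receptor of inflammatory monocytes, was found in 0 of 28 and 1 of 55 macrophages. Of 10 NK and cytotoxic genes, only Ctsw and Nkg7 passed the filter on low counts. Nkg7, at 15 and 2 UMIs against 0, passed it through the immune cells alone, so no count is read from this list. Of 10 dendritic cell genes, 4 were tested, Fscn1 was higher and Zbtb46 lower, and Xcr1, Cd209a, Itgax and Ccr7 were at 0 in immune cells. The call of Fscn1 was lost under library-size scaling, thinning (edgeR adjusted p = 0.186) and without oocyte-rich cells (edgeR adjusted p = 0.291). That of Zbtb46 was lost in DESeq2, without the count filter, without doublets and under thinning (adjusted p = 0.0524 to 0.283), at log2 fold changes of -2.06 to -2.65 in place of -2.62. None of 4 tested mast cell genes was called, and all immune cells together held 1 and 2 UMIs of the 10 listed genes. All other cells held 655 and 324 UMIs of them, at up to 21.1% and 10.8% of the UMIs of a cell, so the rule left out cells with mast cell genes.

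Ighm, the heavy chain of IgM, was higher in immune cells, at 82.3 and 324 CPM against 1.76 and 1.07 (153-fold, counting interval 122 to 193, adjusted p = 9.49e-06, edgeR). Most of its UMIs were in macrophages, 22 of 24 and 113 of 114, and it was found in 10 of 28 (35.7%, 95% interval 18.6 to 55.9%) and 36 of 55 macrophages (65.5%, 51.4 to 77.8%), with at most 5 and 10 UMIs in a cell. Cd79b, part of the B cell receptor, was found in 11 of 28 and 8 of 55 macrophages. Among other leukocytes it was found in 0 of 10 and 2 of 8 cells. The B cell genes Cd79a, Pax5 and Ms4a1 were at 0 in the immune cells of each library.

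All 5 tested erythroid genes were called higher, but most of their UMIs in replicate 2 came from 1 macrophage, and none was called with likely doublets left out. Of the lists of other ovarian cells, 6 of 8 granulosa genes, 5 of 8 mesothelial genes and 1 of 8 endothelial genes (Kdr) were lower. Egfl7 of the endothelial list was higher (75.5 and 88.2 CPM against 19.9 and 10). Its call was lost under thinning (log2 fold change 1.90, adjusted p = 0.0608, edgeR). The endothelial counts were near the shares of all tested genes, 9.89% higher and 10.2% lower. Wnt4, the granulosa gene most abundant in immune cells, was not called (10.3 and 37 CPM against 45.1 and 66.5, adjusted p = 0.102), and with the library as a block its adjusted p was 0.0106 in edgeR at a log2 fold change of -1.24. It was also called lower under library-size scaling (-1.51), without doublets (-2.26), without oocyte-rich cells (-2.03) and without the macrophages with somatic RNA (-3.32). None of 8 interstitial genes was called. Their most abundant gene, Dcn, had 545 and 418 CPM against 596 and 950 (adjusted p = 0.0815, edgeR). It was called lower under library-size scaling (adjusted p = 0.0164, edgeR), thinning (log2 fold change -2.40) and without oocyte-rich cells (-1.57), and with the 5 and 9 macrophages that held at least 0.2% of somatic RNA left out all 8 were called lower.

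To set macrophages apart from the other leukocytes, the same test was run between the 83 and the 18 cells. Of 2358 genes tested outside the rule, 169 (7.17%) were called higher in macrophages and 74 (3.14%) lower. These sums are small, 49015 and 36077 UMIs for other leukocytes, and the libraries differ in their makeup, since the neutrophil cells were all in replicate 1. Without the 4 neutrophil cells 243 genes were called higher and 96 lower, of which 169 and 72 were shared.

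The macrophage side held C1qc, Pf4, Hmox1, Ccl4, Dab2, Ccl12, Fcrls and Trem2. Each was at 0 UMIs in the other leukocytes of each library and passed the filter through macrophages alone, and macrophages were chosen by C1qa or Csf1r, so these values are a description. C1qc had 3429 and 3739 CPM in macrophages and was at least 86.2-fold higher. Pf4 was at least 80.5-fold and Hmox1 at least 73.5-fold higher, with Hmox1 at 2046 CPM in replicate 1 and 3854 in replicate 2. Dab2, an endocytic adaptor, had 1087 and 1066 CPM and was at least 25.7-fold higher. Trem2, a lipid-sensing receptor, had 753 and 821 CPM and was at least 18.9-fold higher. Over all tested genes 7.17% were higher in macrophages. Of the lists, 17 of 21 tested lysosome genes and 16 of 21 macrophage genes were higher. So were 8 of 12 genes for iron, haem and lipid handling. Of these tested genes, 1, 11 and 5 had 0 UMIs in other leukocytes and passed the filter through macrophages alone, so they could not be lower and the counts are a description. With such genes at their bound the median log2 fold change of the macrophage genes was 4.10 in place of 8.20. The 6 tested interstitial genes, among them Dcn, were also higher, at 573 and 584 UMIs for 8 genes in macrophages against 2 and 0 in other leukocytes. The part of RNA from neighbouring cells in the other calls was not tested, and without the macrophages with at least 0.2% somatic RNA 216 genes were called higher and 83 lower.

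The other side included Cd3g, Tcrg-C1, Trbc2, Cxcr6, Itgb7, Tnfrsf18 and Ctsw, each at 0 UMIs in all macrophages, so they too passed the filter through one group alone and are given as a description. Cd3g had 24 and 18 UMIs in other leukocytes (656 and 513 CPM), which put macrophages at least 99.1-fold lower. Cxcr6, a chemokine receptor of tissue lymphocytes, had 4 and 24 UMIs, Itgb7, an integrin chain for homing to mucosa, 6 and 17, and Tnfrsf18, the receptor GITR, 4 and 18, so their levels were higher in replicate 2. Ctsw, a protease of cytotoxic lymphocytes, had 17 and 5 UMIs and was higher in replicate 1. Of the other tested T cell and innate lymphoid genes, Gata3 and Rora were lower in macrophages, as were Ccl5, Il2rg and S100a4. Of 18 leukocyte-wide genes none was higher and Cytip and Coro1a were lower in macrophages. Over all tested genes 7.17% were higher and 3.14% lower.

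**Figure D5:**
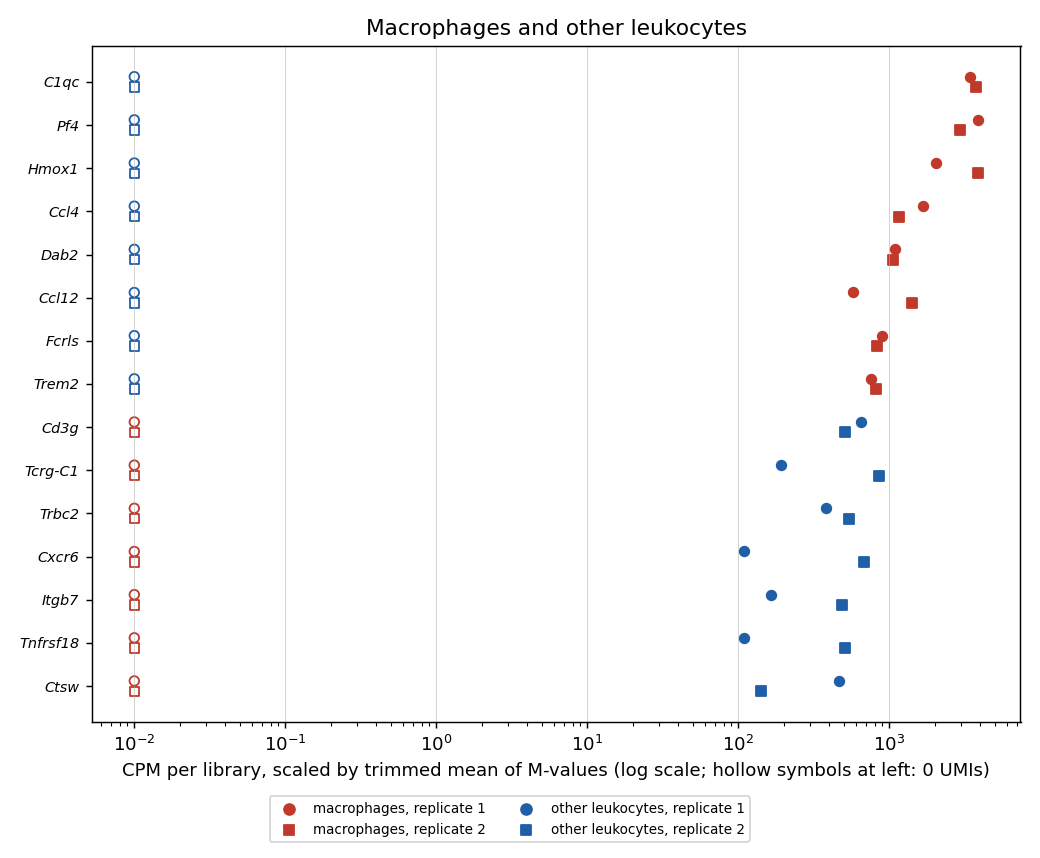
CPM in each library (log scale, scaled by the trimmed mean of M-values) of the 8 genes with the largest positive difference and 7 of those with the most negative difference between macrophages (red) and other leukocytes (blue). Circles are replicate 1 and squares replicate 2; hollow symbols at the left edge stand for 0 UMIs, and each of these genes was at 0 in one of the groups in each library.

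Cell division was compared after thinning each cell to 2000 UMIs, which leaves out 6 and 10 immune cells. At least 2 of 10 cell cycle genes were then found in 11 of 32 immune cells of replicate 1 (34.4%, 95% interval 18.6 to 53.2%) and 7 of 53 of replicate 2 (13.2%, 5.48 to 25.3%). In other cells the shares were 24.6% and 33.2%, so the immune value was above them in replicate 1 and below them in replicate 2. With the oocyte-rich cells left out, the shares of other cells were 19.8% and 22.6%, which lie within the immune intervals. Without thinning, the immune shares were 44.7% and 25.4% and those of other cells 40.3% and 48.4%, or 36.1% and 39.0% without the oocyte-rich cells. With 2 libraries no exact test of such shares can reach 0.05. Of the 10 genes none was higher and Ube2c was lower (244 and 159 CPM against 504 and 731, adjusted p = 0.00174, edgeR). The call of Ube2c was lost under thinning and without the oocyte-rich cells. Over all tested genes 10.2% were called lower, so 1 gene of 10 is near that share. Top2a had 182 and 79.7 CPM against 67.8 and 65.5 and was not called. The median log2 fold change of the list was 0.17, and it was -0.15 under scaling by library size.

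The study asked which ovarian cells hold transcripts of long-lived proteins. Of 341 genes taken from the study's supplement for its high-longevity protein cluster, which may not cover every member, 333 were tested, 37 (11.1%) were higher in immune cells and 36 (10.8%) lower, close to the shares of all tested genes. Their 4 most abundant genes in immune cells were Ftl1, Eef1a1 and the ribosomal protein genes Rps19 and Rps4x. Apart from Ftl1 these were not called, and Rps19 had 4908 and 5801 CPM against 5018 and 5454.

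The cells nearest to the rule were read in the same way. The 11 members with exactly 3 leukocyte genes had marker shares down to 0.121% and 0.126%. Outside it, 4 and 7 cells held 2 of the 9 genes at 0.143% to 0.526% of their UMIs, and 2 and 6 of these held at least 3 T or innate lymphoid genes. The other 2 and 1 held 5, 6 and 5 of 6 B cell genes at 1.69%, 3.40% and 1.55% of their UMIs, with 16, 28 and 32 UMIs of Ighm. A further 3 cells of replicate 2 had at least 3 markers with a sum of 0.0189% to 0.0449%, and 1 cell of each library was left out by its oocyte genes.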

How the data were processed

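The deposited matrices give UMI counts, not normalized, which the authors made from 10x Genomics 3′ libraries with Cell Ranger 3.0.2 and GRCm38, per the submitters' processing notes. The labels and the study's methods name different versions of the library kit. Ovaries were dissociated with collagenase IV and Accumax. The libraries held 54471790 and 59074480 UMIs in 4094 and 4847 barcodes, of which 356 and 383 failed the minimum of 500 genes or the limit of 10% mitochondrial UMIs. No deposited file named cell types, so the cells were chosen by the marker rule, and a lineage was noted from at least 3 of its markers. The members, gene lists, lineage markers and motif letters were chosen with earlier results of these data known.

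UMI counts were summed per library and cell class and tested with edgeR 4.0.16 (quasi-likelihood test, trimmed mean of M-values, filterByExpr, Benjamini-Hochberg adjustment over all genes tested) in R 4.3.3. A gene was called at a log2 fold change beyond 1 and an adjusted p under 0.05, and the 12 genes of the rule were left out of calls. The fit took 2 libraries from different pups, and p-values measure only the spread between these. Sums of a library come from the same pups, which pairs them, and their deviations correlated at r = 0.094 in the comparison with other cells and 0.072 between macrophages and other leukocytes. Folds are ratios of the summed UMIs over library totals scaled by the same trimmed mean of M-values, with exact 95% counting intervals, and a group at 0 was set to a floor of 3 counts over the group. Intervals and floors cover counting error only.

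Genes outside the rule were named where they were called, over 2-fold apart in each library and at least at 10 UMIs in immune cells of each library (the 12 largest) or at 50 CPM in other cells of each library (the 6 most negative), as were the 4 tested genes of each list most abundant in immune cells (1 for lists of other ovarian cells) and 8 genes in each direction between macrophages and other leukocytes. Others were named after their values were seen, and a few genes that the rule takes are not reported here. Likely doublets were marked with Scrublet in scanpy 1.11.5 at the threshold of replicate 1 (0.224), which marked 2.73% and 2.08% of cells and 1 and 2 immune cells. The caller's own threshold for replicate 2 was 0.519 and marked 2 cells in place of 93. Marked cells were kept unless stated. Alternatives were DESeq2 1.42.0, library-size scaling, no count filter, the library as a block, thinning to 2000 UMIs, stricter marker rules, a reference without oocyte-rich cells, and leaving out doublets or a library. Leaving out the neutrophil cells or the macrophages with somatic RNA was chosen after seeing the data. On simulated counts for the comparison with other cells (15248 genes), 80% of 4-fold and 100% of 8-fold increases were recovered, 32% and 62% of the decreases to 0.25 and 0.125, and 6.8% of calls were false. For macrophages against other leukocytes (2439 genes) these were 94%, 100%, 50%, 72% and 5.39%. All genes were simulated at the same dispersion, from a mean profile shared by all sums. The changed genes were drawn without the least abundant ones, so these rates need not hold for the data.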

Additional observations from a re-analysis of the deposited data

Results flagged for a closer look

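Cells outside the rule also held leukocyte transcripts. At least 3 of 10 T cell genes were found in 4 cells of replicate 1 and 4 of replicate 2 that the rule left out, and each of these 8 cells had at least 1 UMI of the 9 leukocyte genes. Among the immune cells 3 and 3 reached the same number of T cell genes, so the share of lymphoid cells among immune cells depends on the marker rule. Barcodes with fewer than 500 genes or over 10% mitochondrial UMIs were not compared, and 4 of those in replicate 1 and 4 in replicate 2 met the marker rule. With all barcodes the rule took 42 of 4094 and 67 of 4847.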

How the results depend on the processing

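Between immune and all other cells, thinning each cell to 2000 UMIs gave 546 genes called higher and 509 lower in place of 1529 and 1581. Library-size scaling gave 2680 lower, and a reference without oocyte-rich cells 1005 lower. With the library as a replicate block, 1514 were higher and 1888 lower, and 132 and 67 between macrophages and other leukocytes, and among the named genes the block changed only the calls of H2-Aa and Wnt4. Between macrophages and other leukocytes, dropping the filter on low counts tested 12819 genes and gave 479 higher and 210 lower in place of 169 and 74, and thinning tested 475 and gave 65 and 11. The mean macrophage share rose from 80.5% to 90.3% with at least 4 leukocyte genes required. The other alternatives kept these counts within 1.5 times.

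Among named genes the sign turned for Gata3 with at least 4 leukocyte genes required (log2 fold change -1.96, adjusted p = 0.282), for H2-Ab1 without likely doublets (-8.91, adjusted p = 0.268), and for Ube2c (0.61) and Dppa3 (0.33) without oocyte-rich cells, all in edgeR. None of these 4 was called under that setting. The causes were not tested, except that the cell with most H2-Ab1 was among the doublets. Leaving out a library leaves 1 sum against 1 and no test. H2-Ab1 was then -5.24 without replicate 1 and 6.95 without replicate 2, genes over 2-fold higher by fold alone numbered 2317 to 2497 and lower 6509 to 6662, the immune share was 1.02% to 1.41%, the macrophage share 73.7% to 87.3% and the cell cycle share 13.2% to 34.4%. The 18 other leukocytes, with 49015 and 36077 UMIs, limit what their comparison could show.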
